A study of Mus musculus with 12 samples.

Results

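The 9 genes described here make, remove or read methyl groups on cytosine in DNA, and they were followed in the brain cortex of 12 mice by bulk RNA sequencing. They were found in the deposited count table by gene symbol and are 9 of its 33024 symbols: the DNA methyltransferases Dnmt1, Dnmt3a and Dnmt3b, the Dnmt1 cofactor Uhrf1, the methylcytosine dioxygenases Tet1, Tet2 and Tet3, and the methyl-CpG readers Mbd1 and Mbd2. All 9 were found and all 9 were among the 16059 genes tested. Tet2 was higher in the ethanol-administered mice in every fit that was run, by 1.34-fold, and Mbd1 was higher by 1.11-fold, whereas Uhrf1 was 0.613-fold and Mbd2 0.881-fold of the control level. These last 3 genes passed the test only narrowly. For the 5 other genes, Dnmt1, Dnmt3a, Dnmt3b, Tet1 and Tet3, no difference passed the test.

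DNA methylation is written mostly on cytosines followed by guanine (CpG). Dnmt3a and Dnmt3b place new marks, while Dnmt1 copies existing marks to the new strand after replication, guided there by Uhrf1, which recognises hemimethylated sites. Tet enzymes oxidise 5-methylcytosine to 5-hydroxymethylcytosine and beyond, the first step towards removing the mark, and the oxidised form is abundant in neurons. Readers such as Mbd1 and Mbd2 bind methylated CpG and bring in repressor complexes that deacetylate or methylate histones.

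The study asked which changes of the brain last after binge-like drinking, and sequenced cortex from 7 Control and 5 EtOH mice of its abstinence arm. All were wild-type C57BL/6 mice. From 30 days of age, mice of the EtOH group chose for 12 h in the dark between water and 20% (v/v) ethanol over 35 days, Control mice had water in both bottles, and a 14-day abstinence followed in the drinking group before behavioural tests and collection. Intake was voluntary and is not given for each mouse. The labels do not state the sex of the mice, although each column label ends in an M that is not explained. Given the abstinence, the groups show cortex after drinking had stopped, not during drinking. Each sample was a separate mouse.

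Total counts were 31768076 to 40690223 in Control and 32048723 to 42183029 in EtOH mice, so 3 counts corresponded to 0.0711 to 0.0944 CPM (counts brought to a common library size, scaled here with TMM factors of 0.982 to 1.02). Control 5 and EtOH 1 were the deepest libraries. Markers of cortical excitatory neurons were present in every mouse, with a summed level of 2285 to 2767 CPM in Control and 2199 to 2760 CPM in EtOH mice. Of these 7 markers, 3 passed edgeR's test (adjusted p under 0.05) and were higher in EtOH mice, and 1 passed and was lower. Among all genes tested, 12.1% passed and were higher and 11.6% passed and were lower, shares that belong beside each marker count below. Markers of neighbouring tissue and of glia differed as well. Those of striatal neurons summed to 1001 to 2396 CPM in Control and 236 to 304 CPM in EtOH mice (11 of 11 passed the test and were lower), and those of hippocampal neurons to 70.7 to 78.9 CPM and 177 to 228 CPM (7 of 9 passed and were higher). Oligodendrocyte markers summed to 4285 to 5703 CPM and 2872 to 5139 CPM (6 of 6 passed and were lower), and microglia markers to 251 to 275 CPM and 224 to 247 CPM (3 of 6 passed and were lower). Of the astrocyte markers 3 of 6 passed and were higher, and of those of oligodendrocyte precursors 2 of 5 passed higher and 2 lower. Of those of immature neurons 2 of 6 passed higher and 2 lower, and of those of endothelial cells 0 of 5 passed. Beside these lists, 23.7% of all genes tested passed in either direction. None of the markers was at 0 in every mouse, and the part of tissue composition in the values below was not tested. In bulk tissue, fewer cells of a type and less RNA per cell cannot be told apart.

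The sequence before the outermost annotated start is shown for Uhrf1, which had the largest difference of the 9 genes in edgeR's fit of all 12 mice. Dnmt3b had the larger difference in size without Control 5, without EtOH 4 and without the 2 deepest libraries. The sequence of Uhrf1 is described first. It is the 250 bases before the GENCODE gene start in GRCm39, the build of the counts, at chr17:56610025-56610274, plus strand, read 5′ to 3′ along the gene, with its 7 CpG in capitals.
Uhrf1: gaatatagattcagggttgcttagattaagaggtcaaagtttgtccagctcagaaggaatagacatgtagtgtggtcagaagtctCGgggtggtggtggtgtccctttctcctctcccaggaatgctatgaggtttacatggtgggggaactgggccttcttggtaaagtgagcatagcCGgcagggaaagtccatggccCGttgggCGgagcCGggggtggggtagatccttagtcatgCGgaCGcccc
Among 32851 RefSeq promoters (GRCm38.p6), each taken as the 250 bases before a start, 53.7% held fewer CpG than this stretch. The starts that RefSeq lists lie further into the locus, and the 2 Uhrf1 windows before them held 10 and 30 CpG. The window with 10 CpG, at chr17:56610087-56610336 in GRCm39, overlaps the stretch shown and is not a separate region. Both windows overlap exons that GENCODE gives to other Uhrf1 transcripts, so they lie before 1 start but not before all. In all, 12 RefSeq windows of 7 of the 9 genes were searched on both strands. The E2F motif (TTTCCCGC, TTTCGCGC, TTTGCCGC or TTTGGCGC), bound by the cell cycle factors of that name, was in 1.86% of all promoters and in 1 window each of Uhrf1 and Dnmt1, the pair that maintains methylation at replication. Both matches were TTTCGCGC, which itself contains CpG. The SP1 motif GGGCGG was in 32.7% of all promoters and in 10 of these 12 windows, with 2 of Dnmt1 lacking it. This motif also contains CpG, and the windows held 2 to 51 CpG, beside a median of 6 over all promoters. They were not set against promoters of like CpG content, and 2 windows of Dnmt3a overlap each other. The CRE motif TGACGTCA, in 1.55% of all promoters, was in 0 of the 12.
The stretches of 30 bases around the E2F matches are shown with the motif in capitals, at chr17:56304117-56304146 (plus strand) and chr9:20952824-20952853 (minus strand) of GRCm38.p6. The match begins 185 bases before a Uhrf1 start on the strand of the gene, inside an exon of another transcript, and 219 bases before a Dnmt1 start on the other strand, where it reads as its reverse complement.
Uhrf1: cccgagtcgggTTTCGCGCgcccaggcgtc
Dnmt1: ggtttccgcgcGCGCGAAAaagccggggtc
A match describes the letters of these windows and does not show binding, and no window was assayed in these mice.

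On the scale of CPM per kilobase of merged exons, which allows levels of different genes to be set side by side, the maintenance enzyme Dnmt1 was highest with a median of 7.35 over the 12 mice. It was followed by Dnmt3a at 6.14, Mbd1 at 4.72, Mbd2 at 4.30, Tet3 at 3.83 and Tet2 at 3.11. Tet1 stood lower at 0.725, and Uhrf1 at 0.202 and Dnmt3b at 0.137 were lowest. The ranges over mice overlapped between each of these genes and the next, except that Tet2 lay above Tet1 and Tet1 above Uhrf1 in all 12 mice without overlap. Dnmt1 was above Dnmt3a in 12 of 12 mice, but Uhrf1 was above Dnmt3b in 8 of 12. With the length of the longest transcript in place of merged exons, Dnmt3a was above Dnmt1 and Mbd2 above Mbd1, so the order within these pairs rests on the length that is used.

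**Figure D1:**
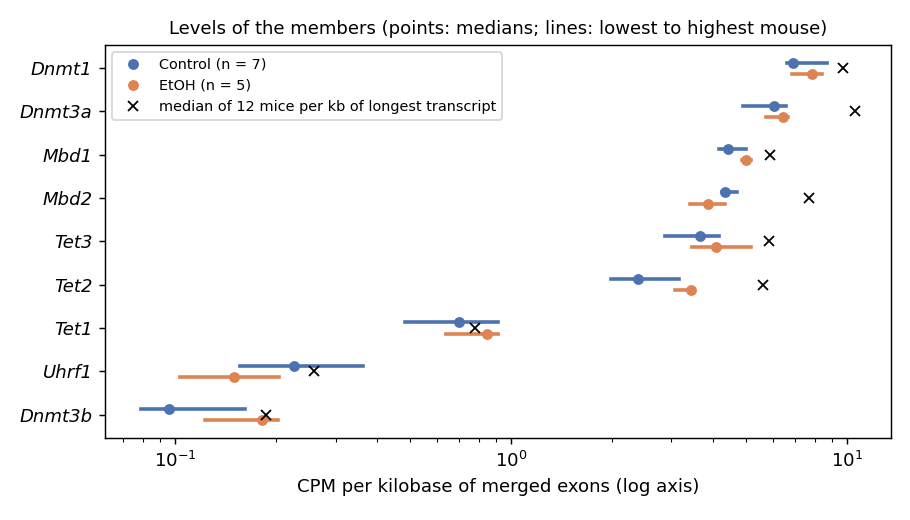
Level of each gene in CPM per kilobase of merged exons on a log axis, with points for the group medians (7 Control and 5 EtOH mice), lines from the lowest to the highest mouse, and crosses for the median of 12 mice per kilobase of the longest transcript. Tet1, Uhrf1 and Dnmt3b lie below the 6 other genes.

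Of the 9 genes, 2 passed the test and were higher in EtOH mice and 2 passed and were lower, where the test was edgeR's quasi-likelihood test at an adjusted p under 0.05. Among all genes tested 23.7% passed, 12.1% higher and 11.6% lower. With the study's minimum of 0.5 on the log2 fold change as well, none of the 9 was called higher, beside 4.20% of all genes, and 1, Uhrf1, was called lower, beside 4.09%. DESeq2 and limma voom also called 0 higher, and at an unadjusted p under 0.05 there was 1 above the minimum, Dnmt3b. The values of the groups overlapped for all 9 genes. Among all genes tested, 9.81% had groups that did not overlap, a share too small to set these 9 genes apart. The median size of the log2 fold change was 0.22 for the 9 genes and 0.15 for all genes tested, and the median of all genes was 7.21e-05.

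**Figure D2:**
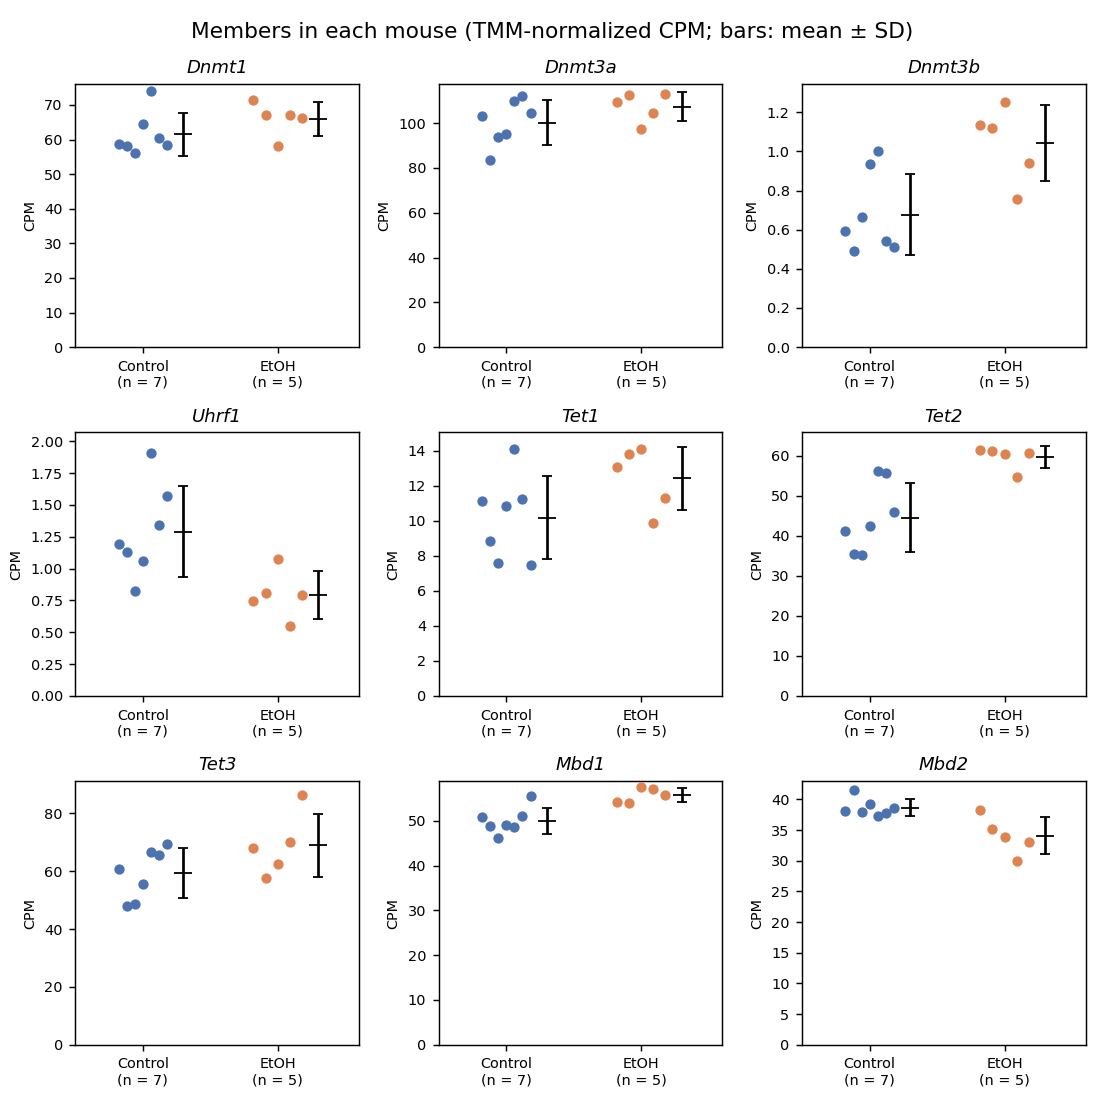
CPM of each gene in each mouse, with blue points for 7 Control and orange points for 5 EtOH mice and bars for the mean ± SD; every axis starts at 0. For Tet2, 4 of 5 EtOH mice lie above all controls, and for Uhrf1 and Mbd2 4 of 5 lie below all controls.

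**Figure D3:**
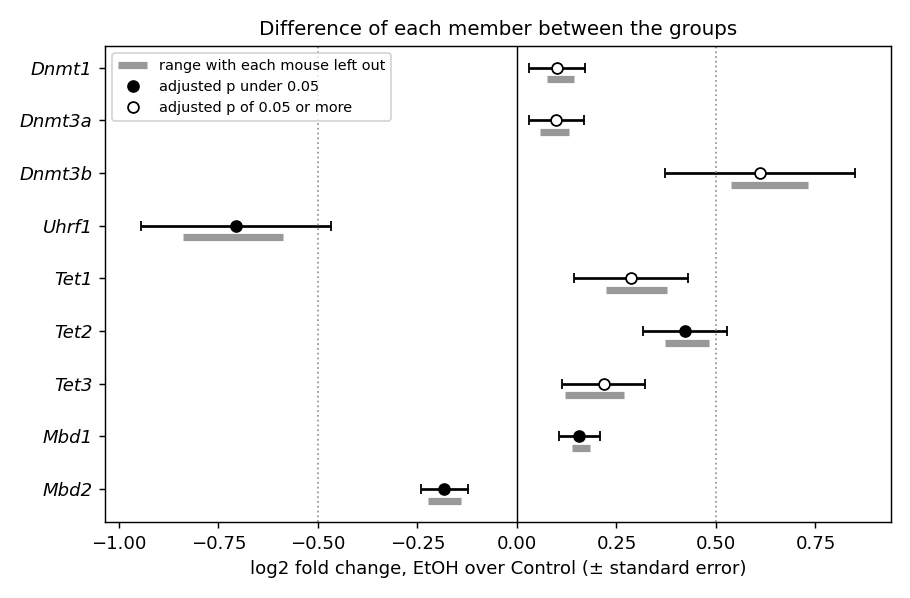
Log2 fold change of each gene, EtOH over Control, with its standard error; filled points passed the test, grey bars give the range when each mouse was left out in turn, and dotted lines mark 0.5 in either direction. The range for each gene stays on 1 side of 0.

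Among the erasers, Tet2 (chr3:133169436-133250900, minus strand, GRCm39) was upregulated. Its level in Control mice was 35.2 CPM at the lowest, 42.4 at the median and 56.2 at the highest, and in EtOH mice 1 to 5 it was 61.4, 61.3, 60.4, 54.7 and 60.8 CPM. The EtOH mice lay close together, 4 of them above every control, and EtOH 4 was below the 2 highest controls, Control 5 and Control 6. The means were 44.6 ± 8.66 CPM (SD, n = 7) and 59.7 ± 2.84 CPM (n = 5), a log2 fold change of 0.42 with a standard error of 0.11 and an adjusted p of 0.00807. Tet2 passed in all 12 fits that left out a mouse (log2 fold change 0.37 to 0.48, adjusted p 0.00128 to 0.0194), and in all 8 fits with another tool, scaling, filter, block or without the 2 deepest libraries. It stayed under the study's minimum of 0.5 in all of these except the fit with a replicate block, where it was 0.52. Exons of the predicted gene Gm42567 overlap Tet2 on the other strand, and whether the counting used strand is not given in the sources used here.

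Tet3, a dioxygenase with a CXXC DNA-binding domain that Tet2 lacks, had a higher mean in EtOH mice, but did not pass. The Control values ran from 48.1 CPM through a median of 60.9 to 69.5, and the EtOH values were 67.9, 57.6, 62.6, 70.1 and 86.4 CPM. EtOH 5 stood above the rest, EtOH 4 was just above the highest control, and the other three were within the control range. The log2 fold change was 0.22 ± 0.11 (SE, adjusted p = 0.144), and 0.12 without EtOH 5 (adjusted p = 0.420). Reads of the iron-sulphur assembly gene Bola3, with 394 to 647 counts per mouse, could be shared with Tet3, since their exons overlap on opposite strands.

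Tet1 (10.2 ± 2.38 CPM in Control, 12.4 ± 1.80 CPM in EtOH mice) did not pass either, with a log2 fold change of 0.29 ± 0.14 (SE, adjusted p = 0.158). Its Control values ran from 7.47 through a median of 10.8 to 14.1 CPM in Control 5, and the EtOH values were 13.1, 13.8, 14.1, 9.89 and 11.3 CPM. The 2 groups covered nearly the same span at the top. Without Control 5, the deepest control and the highest for 5 of the 9 genes, Tet1 passed at a log2 fold change of 0.38 (adjusted p = 0.0351), and it passed in none of the 11 other fits that left out a mouse.

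Within the Tet family, Tet2 was set against Tet1 and Tet3 in each mouse. The ratio of Tet2 to Tet1 counts was 3.69 to 6.16 in Control (median 3.99) and 4.28 to 5.53 in EtOH mice (median 4.70). The highest control was Control 7, and EtOH 4 and EtOH 5 were above the 6 other controls. The ratio of Tet2 to Tet3 counts in the same mouse was 0.662 to 0.851 in Control (median 0.736) and 0.703 to 1.06 in EtOH mice (median 0.904), and 3 of 5 EtOH mice were above every control. On the per-kilobase scale the median share of Tet2 in the family was 36.9% in Control and 41.3% in EtOH mice, that of Tet3 52.9% and 48.6%, and that of Tet1 10.5% and 10.1%. These ratios were not tested.

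Among the writers, Dnmt1 and Dnmt3a differed little between the groups. Dnmt1, the maintenance methyltransferase, ran in Control mice from 56.1 CPM through a median of 58.6 to 73.9 in Control 5, and was 71.3, 67.0, 58.1, 67.0 and 66.2 CPM in EtOH mice. Dnmt3a, the de novo enzyme that dominates in mature neurons, ran from 83.4 CPM through a median of 103.1 to 112.1, and was 109.6, 112.5, 97.4, 104.5 and 113.2 CPM in EtOH mice. The groups overlapped over most of their range for both. The log2 fold changes were both 0.10 with a standard error of 0.07, with adjusted p-values of 0.311 for Dnmt1 and 0.319 for Dnmt3a (without Control 2, the log2 fold change of Dnmt3a was 0.06, adjusted p = 0.538). The ratio of Dnmt3a to Dnmt1 counts had a median of 1.67 in Control and 1.68 in EtOH mice.

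Dnmt3b, the de novo enzyme best known from early development, was near the limit of these libraries at 16 to 49 counts per mouse. Its Control values ran from 0.490 CPM through a median of 0.595 to 1.00, and its EtOH values were 1.14, 1.12, 1.25, 0.759 and 0.942 CPM. All 5 EtOH mice were above the control median, and 3 of 5 were above every control. The log2 fold change was 0.61 ± 0.24 (SE), with an unadjusted p of 0.0199 and an adjusted p of 0.0715, so Dnmt3b did not pass. Counting error is large at this level, since 16 counts have an exact 95% Poisson interval of 9.15 to 26.0 counts (counting error alone). Without Control 5, which was the highest control, Dnmt3b passed with a log2 fold change of 0.73 (adjusted p = 0.0290), and it passed in no other fit.

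Uhrf1 (chr17:56610275-56630489, plus strand, GRCm39), which brings Dnmt1 to newly replicated DNA, was downregulated at the main threshold. Control mice had 0.821 CPM at the lowest, 1.19 at the median and 1.91 at the highest (Control 5), and EtOH mice 1 to 5 had 0.742, 0.809, 1.07, 0.546 and 0.790 CPM. In the EtOH group, 4 of 5 mice were below every control and EtOH 3 was within the control range. The means were 1.29 ± 0.358 CPM (n = 7) and 0.792 ± 0.189 CPM (n = 5), a log2 fold change of -0.71 with a standard error of 0.24 and an adjusted p of 0.0394. These levels rest on 18 to 78 counts per mouse, and 18 counts have a Poisson interval of 10.7 to 28.4.

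The Uhrf1 call was lost in 8 of 12 fits that left out a mouse, while the log2 fold change stayed between -0.84 and -0.59. The adjusted p was 0.0519 without Control 1, 0.0657 without Control 5, 0.0537 without Control 6, 0.0668 without Control 7, 0.0795 without EtOH 1, 0.0545 without EtOH 2, 0.0966 without EtOH 4 and 0.0682 without EtOH 5. Without the 2 deepest libraries together, Control 5 and EtOH 1, it was 0.129 at a log2 fold change of -0.55. The ratio of Uhrf1 to Dnmt1 counts, which was chosen after the values had been seen, was 0.0146 to 0.0269 in Control and 0.00815 to 0.0185 in EtOH mice. For markers of dividing cells, the summed level of the 7 listed genes was 12.7 to 16.9 CPM in Control and 7.87 to 10.8 CPM in EtOH mice. Of the 7, Top2a and Mcm5 passed and were called lower (28.6%, beside 4.09% of all genes called lower and 11.6% that passed and were lower), and the 5 others had negative log2 fold changes that did not pass. Their part in the Uhrf1 difference was not tested.

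**Figure D4:**
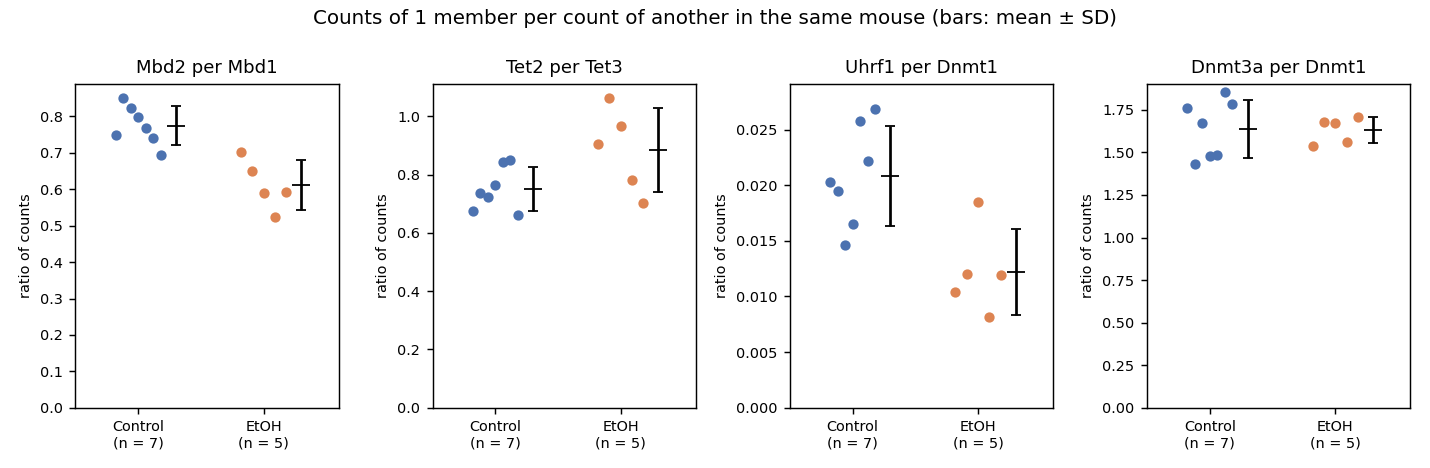
Ratio of the counts of 1 gene to those of another in the same mouse, with points for 7 Control and 5 EtOH mice and bars for the mean ± SD; every axis starts at 0. Mbd2 per Mbd1 and Uhrf1 per Dnmt1 were below every control in 4 of 5 EtOH mice, Tet2 per Tet3 was above every control in 3 of 5, and Dnmt3a per Dnmt1 overlapped throughout.

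The 2 readers moved in opposite directions. Mbd1 (chr18:74400676-74415803, plus strand, GRCm39), which binds methylated CpG and also has domains that bind unmethylated CpG, ran in Control mice from 46.2 CPM through a median of 49.2 to 55.6 in Control 7, and in EtOH mice was 54.3, 54.1, 57.5, 57.2 and 55.9 CPM. Apart from Control 7, every control was below every EtOH mouse. The means were 50.0 ± 2.93 and 55.8 ± 1.58 CPM, a log2 fold change of 0.16 with a standard error of 0.05 and an adjusted p of 0.0354. Mbd1 passed but was under the fold minimum, and it no longer passed in 8 of 12 fits that left out a mouse. The adjusted p was 0.0516 without Control 1, 0.0599 without Control 2, 0.0696 without Control 3, 0.0658 without Control 4 and 0.0517 without Control 5. It was 0.0849 without EtOH 3, 0.0751 without EtOH 4 and 0.0708 without EtOH 5, and the log2 fold change was 0.14 to 0.18 over all 12.

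Mbd2 (chr18:70701260-70762203, plus strand, GRCm39), the subunit that recruits the nucleosome remodelling and deacetylase (NuRD) complex to methylated DNA, was lower in EtOH mice. Its Control values were tight, from 37.3 CPM through a median of 38.0 to 41.5, and the EtOH values were 38.2, 35.1, 33.9, 29.9 and 33.0 CPM. EtOH 1 was among the controls and the other four were below them all. The means were 38.65 ± 1.43 and 34.0 ± 3.02 CPM, a log2 fold change of -0.18 with a standard error of 0.06 and an adjusted p of 0.0347. Mbd2 passed but was under the fold minimum in size, and it no longer passed in 6 of 12 fits that left out a mouse. The adjusted p was 0.0505 without Control 1, 0.0683 without Control 2 and 0.0620 without Control 4. It was 0.0660 without EtOH 3, 0.0975 without EtOH 4 and 0.0770 without EtOH 5, and the log2 fold change was -0.22 to -0.14 over all 12.

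Set against each other in the same mouse, there were 0.694 to 0.851 Mbd2 counts per Mbd1 count in Control mice (median 0.767) and 0.523 to 0.703 in EtOH mice (median 0.591), so that 4 of 5 EtOH mice were below every control. The ratio was not tested. Both genes overlap predicted genes on the other strand, Gm58866 for Mbd1 and Gm31671 for Mbd2, which leaves part of their counts uncertain. In all, 6 of the 9 genes have such an overlap, and Dnmt1, Uhrf1 and Tet1 have none. Of the overlapping genes only Bola3, over Tet3, and Dnmt3aos, over Dnmt3a, were in the count table. Dnmt3aos had 0 to 4 counts per mouse.

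The other genes of the pathway were read from 3 lists. Of 21 further genes that act on DNA methylation, 19 were tested, of which 3 were higher and 2 lower (26.3% passed, close to the 23.7% of all genes), with a median log2 fold change of 0.14. Mbd4, a methyl-CpG-binding glycosylase that repairs mismatches from deaminated cytosine, rose by 1.33-fold (8.19 ± 0.785 to 10.9 ± 0.617 CPM, adjusted p = 0.00155). All 5 EtOH mice were above every control, beside 9.81% of all genes whose groups did not overlap. Cxxc5, a CXXC protein that binds unmethylated CpG, fell to 0.818-fold (adjusted p = 0.00563). Mbd3, the NuRD subunit related to Mbd2, had a log2 fold change of -0.08 ± 0.07 (SE, adjusted p = 0.437) and did not pass, with -0.13 without EtOH 1 and -0.04 without EtOH 3. The Dnmt3a cofactor Dnmt3l had 0 to 8 counts per mouse and Dppa3 0 in every mouse, and neither was tested.

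Of 19 partner proteins, 6 were higher and 1 was lower (36.8% passed, beside 23.7% of all genes), with a median log2 fold change of 0.10. Those with the smallest p were the chromatin helicases Chd3 (1.25-fold, adjusted p = 0.00192) and Chd5 (1.18-fold, adjusted p = 0.0168), the NuRD subunit Mta3 (1.30-fold, adjusted p = 0.00278) and the histone deacetylase Hdac1 (1.22-fold, adjusted p = 0.00605). For Mta3, Hdac1 and Ogt, which also passed and was higher, all 5 EtOH mice were above every control. Beside this, 9.81% of all genes had groups that did not overlap. The gene that was lower was Hdac2, the close relative of Hdac1 (0.872-fold, adjusted p = 0.0397), and other NuRD subunits of the list, among them Chd4 (log2 fold change 0.01) and Rbbp7 (-0.11), did not pass. Among the 5 genes of methyl donor supply, 1 passed (20%, beside 23.7% of all genes), and the median log2 fold change was -0.08. The gene that passed was Ahcyl2, a relative of the enzyme that clears S-adenosylhomocysteine, at 143.4 ± 5.16 CPM in Control and 176.9 ± 10.5 CPM in EtOH mice (1.23-fold, adjusted p = 0.000256). All 5 EtOH mice were above every control for Ahcyl2 as well. No gene of the 3 lists was called with the fold minimum in either direction, since none had a log2 fold change above 0.5 in size in edgeR's fit.

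**Figure D5:**
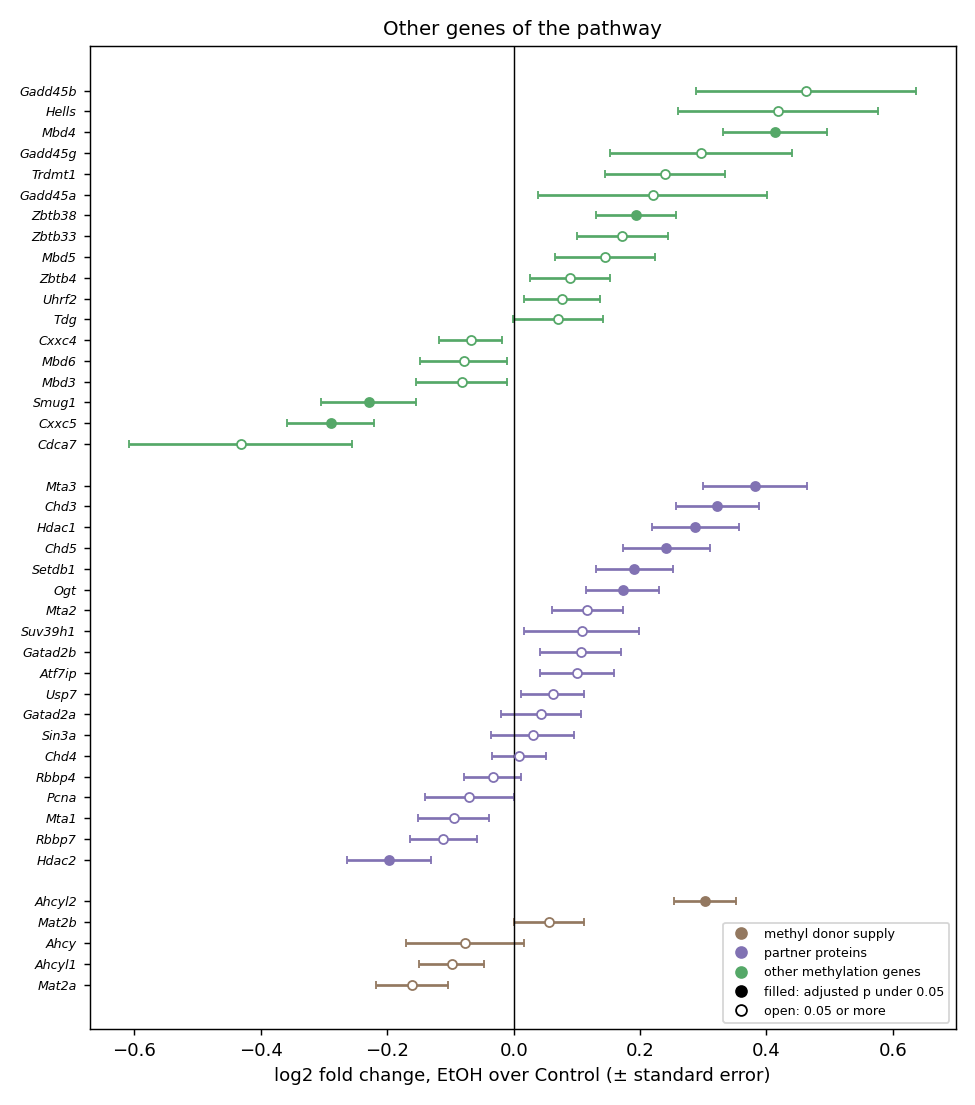
Log2 fold change, EtOH over Control, with its standard error for tested genes of the 3 pathway lists; filled points passed the test. Mbd4, Mta3, Chd3, Ahcyl2 and Hdac1 are among those that passed to the right of 0, and Cxxc5 among those to the left.

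For each of the 4 genes that passed, the genes nearest in pattern were taken by the root mean square difference of log2 CPM over the 12 mice, after each gene's own mean was subtracted. Nearest to Tet2 were Pdpr (0.0629), which encodes a regulator of the pyruvate dehydrogenase phosphatase, the actin crosslinker Flna (0.0768) and the Polycomb gene Phc3 (0.0782), beside an SD of Tet2 itself of 0.296 over the mice. Nearest to Uhrf1 were the adhesion receptor Adgrg6 (0.219), Pm20d1 (0.236) and the kinetochore gene Spc24 (0.264), beside an SD of 0.456. The readers varied less, and their nearest genes were Tacc2 (0.0433), the astrocyte glutamate transporter Slc1a3 (0.0434) and Ints6 (0.0466) for Mbd1 with an SD of 0.100, and Selenof (0.0472), Ddrgk1 (0.0490) and the mitochondrial chaperone Hspa9 (0.0492) for Mbd2 with an SD of 0.124. The list of astrocyte markers, to which Slc1a3 belongs, summed to 2751 to 3282 CPM in Control and 3153 to 3659 CPM in EtOH mice, and its part in the Mbd1 values was not tested.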

How the data were processed

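Cortex RNA of 7 Control and 5 EtOH mice was sequenced by BGI. Per the labels and the methods, reads were checked with FastQC 0.11.9, aligned to GRCm39 with STAR (Gencode release 28) and counted on genes with featureCounts; strand and multi-mapping settings are not given in the sources used here. The authors deposited expected counts per gene symbol without normalization. Of 33024 symbols, 61 held values that were not whole, and all were rounded. Column names identified the mouse of each column.

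Genes passing edgeR's filterByExpr (16059) were scaled with TMM, and the groups were compared by the quasi-likelihood F-test of edgeR, with p-values adjusted by Benjamini-Hochberg over all of them (R 4.3.3, edgeR 4.0.16). Standard errors are the log2 fold change divided by the square root of F. Log2 CPM used a prior count of 2. The members, lists and tests were chosen with earlier results of these data known. Named genes are the 9 members, the 8 list genes with the smallest p among those that passed, Mbd3 and Mbd4, and the 3 genes nearest to each member that passed. A gene that this rule selects is not reported here by name. Other genes, such as single markers, were named after their values were seen. Positions and lengths are from GENCODE M39, and promoters from RefSeq (GRCm38.p6). Alternatives were DESeq2 1.42.0, limma voom 3.58.1, other scaling, filters and fold minimums, a replicate block and each mouse left out; leaving out the 2 deepest libraries and 2 count ratios, Uhrf1 per Dnmt1 and Dnmt3b per Dnmt3a, were added after seeing the data. The fits were tested on simulated data. No mice of a group agreed within sampling noise (chi-square per degree of freedom at least 7.49).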

Additional observations from a re-analysis of the deposited data

Results flagged for a closer look

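Among 34 sets of values examined, each of 7 Control or 5 EtOH mice, 4 held a mouse that stood apart from the others by Dixon's criterion, which chance meets in about 1 of 20 groups. EtOH 4 was the lowest EtOH mouse for Tet2, at a log2 CPM of 5.77 where the next was 5.92, and it was the lowest EtOH mouse for 5 of the 9 genes in all. Control 5 had the highest total of the controls at 40690223 counts (the next had 32356913), and EtOH 1 that of the EtOH mice at 42183029 (the next had 33313165). In Control 7 the ratio of Tet3 to Tet1 counts was 9.30, where the next control had 6.41.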

How the results depend on the processing

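Fitted again under each alternative, the 9 genes and the genes named from the pathway lists by the rule kept their direction. The 9 genes had 0 calls higher and 1 lower: leaving out 1 mouse in turn gave 0 to 1 in either direction, a log2 fold minimum of 0.25 gave 1 higher and a minimum of 1 gave 0 lower, and testing every gene with at least 1 count gave 0 lower, as did leaving out the 2 deepest libraries. Of the 9 genes, those that passed, 2 in each direction, ranged from 1 to 3 higher and 0 to 2 lower with a mouse left out. They were 1 higher and 0 lower with every gene of at least 1 count tested, where adjusted p-values over more genes were 0.0518 for Uhrf1, 0.0571 for Mbd1 and 0.0558 for Mbd2. Over all genes, 3810 passed with all 12 mice, 3124 to 4672 with a mouse left out and 3615 with that filter. With a mouse left out, 576 to 783 of all genes were called higher and 586 to 727 lower. Without the 2 deepest libraries 1 passed lower. Of the 3 pathway lists, with 19, 19 and 5 genes tested, 13 genes passed. With a mouse left out 8 to 18 passed, 8 without Control 3 or without EtOH 5 and 18 without Control 5. The number over all genes moved the same way, to 3202 without Control 3, 3204 without EtOH 5 and 4672 without Control 5. The cause of these changes was not tested. With the longest transcript as the length, 4 genes changed place in the order of levels. With a replicate block, 1 gene was called higher, 0 were called lower and 0 passed lower (Uhrf1 adjusted p = 0.150, Mbd2 adjusted p = 0.0726), while Tet3 passed (adjusted p = 0.00537). Deviations of same-numbered mice correlated at -0.108 to 0.0182, and 0 of 5 pairs matched best. The labels do not say whether the numbers pair the mice, and such correlations cannot show that they do not. Depth limits Uhrf1 and Dnmt3b, with at most 78 and 49 counts in a mouse.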
